A study of Mus musculus with 9 samples.

Results

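The respiratory chain of the inner mitochondrial membrane is assembled from subunits encoded in the nucleus and in the mitochondrial genome, and the nuclear-encoded subunit genes are described here across corneal development. A gene belonged to the set when its mouse symbol began with *Nduf* followed by a, b, c, s or v and a number, with *Uqcr*, with *Cox4* to *Cox8* or with *Atp5*, or was *Sdha*, *Sdhb*, *Sdhc* or *Sdhd*. This rule found 82 of the 19369 genes listed in the files, of which 81 are protein coding and 1, *Ndufs5-ps*, is a transcribed pseudogene. Bulk mRNA-Seq was compared between periocular neural crest (pNC) of C57BL/6 mouse embryos at E10.5 (embryonic day) and whole corneas at E14.5 and E16.5, with 3 samples at each stage and no treatment or mutant allele in any of them. All embryos were wild-type. Each sample was a pool of tissue from many eyes, so the p-values measure the spread between pools rather than between embryos. The pNC had been freed of ectoderm, lens vesicle and optic cup after dispase, whereas the corneas were taken whole and hold epithelium as well as crest-derived stroma and endothelium. In the comparisons with E10.5, stage and tissue changed together and cannot be told apart.

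Complex I (NADH dehydrogenase) and complex II (succinate dehydrogenase) pass electrons to ubiquinone. Complex III then reduces cytochrome c, and complex IV (cytochrome c oxidase) reduces oxygen. Complexes I, III and IV pump protons, and the F1FO ATP synthase, built of a catalytic F1 head and a membrane FO rotor joined by stalks, uses the gradient to make ATP. Several complex IV subunits exist as alternative isoforms used in muscle, testis, lung or under low oxygen. Among the transcription factors known to act at many of these nuclear genes are NRF1, GABPA, YY1 and the estrogen-related receptors. In the avascular cornea, the endothelium in particular is known for many mitochondria.

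The start sites of the members were first inspected for the core words of those factors. RefSeq promoter windows of GRCm38.p6, running from 250 bases before to 50 bases after a transcription start, were at hand for 66 members and for 27025 genes in all. The letters searched, on both strands, were GCATGCGC for NRF1, CCGGAAGT for the ETS factor GABPA, AAGATGGC for YY1 and TCAAGGTCA for the estrogen-related receptors. The NRF1 word lay in the windows of 10 members (15.2%) and 3.05% of all genes. The YY1 word was likewise found in 10 members (15.2%), against 3.19% of all genes. The ETS word was present in 5 members (7.6%) and 4.31% of all genes, and the receptor word in 2 members (3.0%) and 0.466% of all genes. Words of NRF1 overlap themselves when they form a palindrome, as in *Atp5k*, and each gene was counted once.  In 9 of the 10 members with the NRF1 word it lay before the start site, as it did in 731 of the 824 genes that held it. In 8 members (12.1%, against 1.35% of all genes) the YY1 word lay within the 50 bases after it, on the coding strand in all 8. Of the 364 genes in all that held the YY1 word there, 280 held it on the coding strand. A match of letters is a description of the window and not evidence that a factor binds there.

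The following stretches hold the 150 bases before the start site, written 5′ to 3′ on the strand of the gene with matched words in capitals. *Cox5a* is shown because it fell most and held none of the words in its window. *Atp5g3*, *Atp5k* and *Sdhb* are shown because they fell and held a word, and *Ndufa6* because it rose and held one. The starts used for *Cox5a* and *Atp5g3* lie inside the listed genes, which begin at 57517328 and 73912464 on their own strands. Sequence before those outer ends is not shown. The genes whose sequences are printed were chosen after their values were seen.
*Cox5a*, chr9:57521082-57521231, plus strand: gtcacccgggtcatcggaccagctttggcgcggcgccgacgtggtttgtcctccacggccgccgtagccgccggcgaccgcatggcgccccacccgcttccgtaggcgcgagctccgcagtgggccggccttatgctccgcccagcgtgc
*Atp5g3*, chr2:73911327-73911476, minus strand: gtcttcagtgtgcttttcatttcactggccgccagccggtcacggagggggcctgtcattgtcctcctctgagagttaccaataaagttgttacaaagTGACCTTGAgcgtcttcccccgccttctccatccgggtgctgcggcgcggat
*Atp5k*, chr5:108434400-108434549, minus strand: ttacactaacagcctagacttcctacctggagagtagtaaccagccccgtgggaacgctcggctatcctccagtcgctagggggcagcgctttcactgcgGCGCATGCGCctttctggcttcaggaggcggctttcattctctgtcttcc
*Sdhb*, chr4:140961121-140961270, plus strand: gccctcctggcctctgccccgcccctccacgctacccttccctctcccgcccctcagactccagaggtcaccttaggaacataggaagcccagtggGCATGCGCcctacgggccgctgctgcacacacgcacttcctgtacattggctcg
*Ndufa6*, chr15:82354292-82354441, minus strand: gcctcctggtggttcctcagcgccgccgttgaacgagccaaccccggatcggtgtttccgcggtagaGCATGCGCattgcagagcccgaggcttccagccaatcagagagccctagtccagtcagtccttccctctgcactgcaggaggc
*Atp5g3* holds the estrogen-related receptor word in reverse orientation, 52 bases before its start. The NRF1 word begins 50 bases before the start of *Atp5k* as part of a palindrome, 54 bases before that of *Sdhb* and 83 bases before that of *Ndufa6*.

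The next stretches are 30 bases long and show the YY1 word just after the start site in 4 complex I genes, of which *Ndufb8*, *Ndufs6* and *Ndufa9* fell between E10.5 and E16.5 and *Ndufc1* did not.
*Ndufb8*, chr19:44555393-44555422, minus strand: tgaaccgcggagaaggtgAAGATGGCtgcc
*Ndufs6*, chr13:73328433-73328462, minus strand: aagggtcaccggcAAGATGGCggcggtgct
*Ndufa9*, chr6:126849097-126849126, minus strand: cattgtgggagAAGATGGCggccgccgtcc
*Ndufc1*, chr3:51408915-51408944, minus strand: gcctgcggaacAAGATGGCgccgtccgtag
The word begins 39, 34, 30 and 23 bases after the start in *Ndufb8*, *Ndufs6*, *Ndufa9* and *Ndufc1*. The letters ATG are part of the searched word itself, so every match holds them.

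The total count of a sample was 8745135 to 9069001, so depth was alike in all 9. In every stage 1 sample differed more from the other pair than that pair did from each other. The chi-square per degree of freedom was 8.47 and 10.3 for E10.5 replicate 3 (2.93 for the other pair), 26.2 and 26.3 for E14.5 replicate 1 (9.05) and at least 7.55 for E16.5 replicate 1 (3.07). E14.5 replicate 1 had an FPKM (fragments per kilobase of transcript, scaled to the mapped total of the library) of 102 for *Krt12*, the keratin of differentiated corneal epithelium, whereas replicates 2 and 3 had 0.62 and 2.06 and the E16.5 corneas 592 to 990. The keratocyte gene *Kera* was likewise higher in E14.5 replicate 1 (803) than in the other pools (83.1 and 151). Calls that were lost on leaving out a sample are given with the value without it. Between stages, the summed FPKM of 11 corneal epithelial markers was 61.9 to 90.6 in pNC, 720 to 2204 at E14.5 and 5365 to 7751 in E16.5 corneas, and that of 8 keratocyte and stromal markers was 388 to 572, 3491 to 7535 and 13020 to 16840. All 8 proliferation markers fell in each comparison, with summed FPKM of 949 to 1027, 372 to 550 and 157 to 191. Summed vascular endothelial markers went from 154 to 251 at E10.5 to 23.8 to 39.1 at E16.5, and red blood cell markers from 5213 to 8209 to 1232 to 2667. Of the 11 red blood cell genes, 8 fell between those stages and 1, *Hbb-bs*, rose. Its mean FPKM was 23.3 in pNC and 682 in E16.5 corneas, whereas *Hbb-y* had 2452 and 2.87. Summed white blood cell markers were higher in E16.5 corneas (88.4 to 104.6 FPKM) than in pNC (18.2 to 21.9). Among the 8 tested, 2 rose and 1 fell. Periocular neural crest markers had a summed FPKM of 313 to 334 in pNC, 398 to 662 at E14.5 and 300 to 371 at E16.5. The keratocyte gene *Ptgds* was listed at 0 in the pNC samples. The part of these shifts in the results that follow was not tested.

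The respiratory chain genes were abundant at every stage. The median mean FPKM over the 82 members was 102.8 in pNC, 97.0 at E14.5 and 75.6 at E16.5. Together the members took 2.43% ± 0.07 (SD, n = 3) of all FPKM in pNC, 2.28% ± 0.06 at E14.5 and 1.90% ± 0.05 in E16.5 corneas, and 0.938% ± 0.033, 0.790% ± 0.026 and 0.633% ± 0.028 of all counts. The ranges of the 3 stages did not overlap on either scale. In bulk samples, fewer cells of a type and less RNA per cell cannot be told apart. *Atp5b*, the catalytic beta subunit of F1, had the highest mean FPKM of the members at each stage. The second place was held by *Atp5g3*, a c subunit gene of FO, in pNC (398.6), by *Cox8a*, a small complex IV subunit, at E14.5 (339.2) and by *Cox4i1*, another complex IV subunit, at E16.5 (267.9). At the other end, *Cox6a2* and *Cox7a1*, the heart and skeletal muscle isoforms of their subunits, lay between 0 and 0.95 FPKM in every sample. *Ndufs5-ps* was at 0 in 8 samples and had 2.52 FPKM in E16.5 replicate 1. These 3 did not pass the filter on low counts, and 79 members were tested.

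Between E10.5 and E16.5, most respiratory chain genes fell, by modest amounts. With edgeR's quasi-likelihood test at an adjusted p below 0.05, 54 of the 79 members (68.4%) were lower at E16.5 and 4 (5.06%) were higher, whereas 34.7% of all 14771 genes tested were lower and 35.2% were higher. The median log2 fold change of the members was -0.36, equal to a fall of 21.9%, beside 0.00 for all genes tested, and 67 of 79 members lay below 0. FPKM is set to the library total, whereas the test scales libraries by TMM factors. On the library-total scale the median of all genes moved to -0.15 and that of the members to -0.51, with 65 members lower. FPKM falls between these 2 stages are therefore larger than the fitted changes. Samples of the 2 stages did not overlap in scaled counts for 56 members that were lower and 6 that were higher, against 38.0% and 38.4% of all genes in those directions. Changes of at least 2-fold were few among the members. With that minimum added, 2 members were lower and 1 was higher, while 15.4% of all genes were lower and 19.4% higher by the same rule. The 2 were *Cox5a* and the weakly expressed *Cox4i2*, and the 1 was *Ndufa4l2*.

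The fall was spread over both intervals. From E10.5 to E14.5, 31 members were lower and 5 higher, beside 27.5% and 28.9% of all genes, and the median log2 fold change was -0.17 (0.02 for all genes). The 5 became 2 without E10.5 replicate 1, E10.5 replicate 2 or E14.5 replicate 1, and 3 without E10.5 replicate 3. With the 2-fold minimum *Ndufa4l2* was the sole member called, against 13.6% of all genes higher and 7.97% lower. No member was lower by this rule under any setting tried, and the largest fall among them, that of *Cox5a*, was 0.75 on the log2 scale. From E14.5 to E16.5, 24 members were lower and 2 higher, against 17.5% of all genes in each direction, with a median log2 fold change of -0.19 (-0.02 for all genes). *Ndufa4l2* and *Cox4i2* passed the 2-fold minimum in that interval, as did 6.26% of all genes that were higher and 5.47% that were lower. The E14.5 to E16.5 count rests on scaling and on single samples. It was 10 without E16.5 replicate 2, 11 without E16.5 replicate 3, 13 without E14.5 replicate 2 and 15 without E16.5 replicate 1. Scaled to library totals it was 56 lower and 1 higher, and all genes then split into 1683 higher and 4595 lower instead of 2579 and 2585, with the median of all genes shifted to -0.19.

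**Figure D1:**
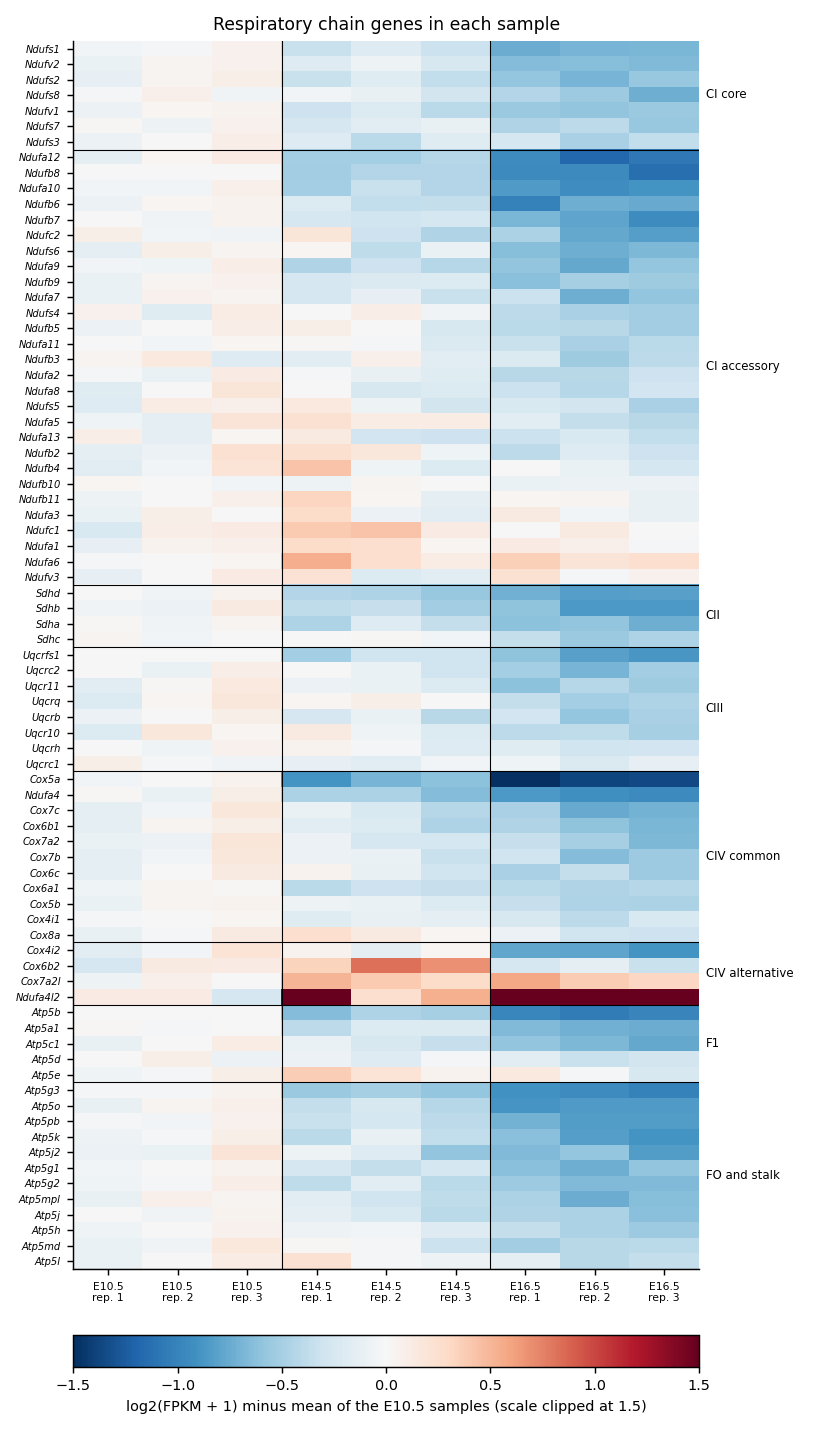
Each row is 1 of the 79 members tested and each column 1 of the 9 samples. Colour is log2(FPKM + 1) minus the mean of the 3 E10.5 samples, clipped at 1.5, with members grouped by complex and sorted by their E16.5 versus E10.5 change. Blue deepens from E14.5 to E16.5 in most rows, and *Ndufa4l2* is the row at the red end of the scale at E16.5.

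**Figure D2:**
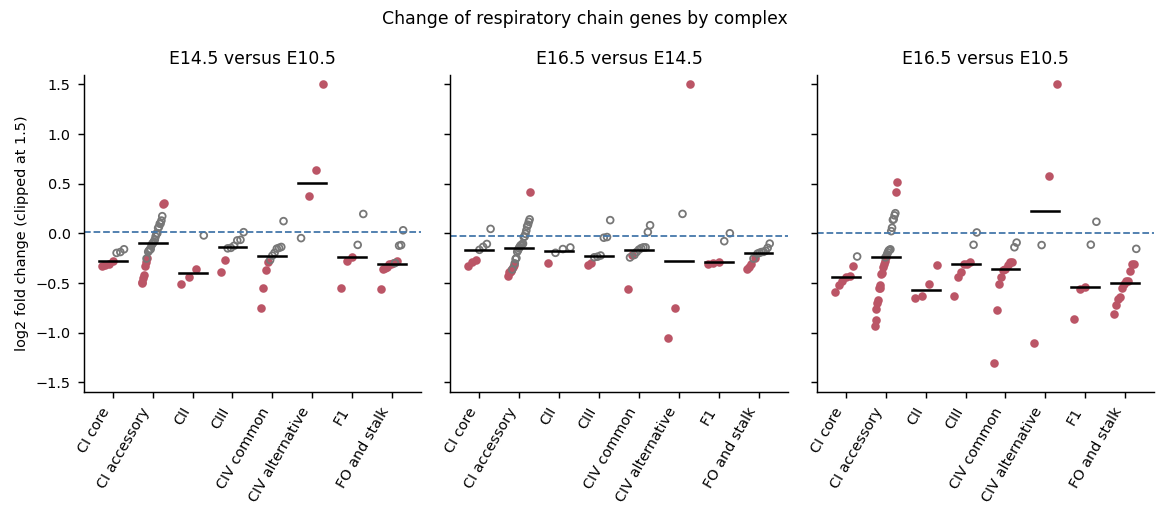
Log2 fold change of each member (vertical axis, clipped at 1.5) by complex for the 3 comparisons. Filled points passed the test at an adjusted p below 0.05, open points did not, black bars are medians of each group, and the dashed line is the median of all genes tested. In the right panel every group median other than that of the complex IV alternative isoforms lies below the dashed line.

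Complex I had subunits that fell and 2 of the 4 members that rose. Of its 7 nuclear-encoded core subunits, which carry flavin, iron-sulfur clusters and part of the quinone site, 6 fell between E10.5 and E16.5. The median log2 fold change of the 7 was -0.44. *Ndufs1*, which holds iron-sulfur clusters, had an FPKM of 43.2, 43.3 and 46.6 in pNC, 35.01, 38.59 and 35.16 at E14.5 and 26.0, 27.0 and 27.1 at E16.5. The groups did not overlap, and the log2 fold change from E10.5 to E16.5 was -0.59 ± 0.08 (SE; adjusted p = 3.9e-05, edgeR). The FMN-binding *Ndufv1* and the cluster subunit *Ndufs7* fell by 0.43 and 0.33 on the log2 scale (edgeR adjusted p = 0.00036 and 0.00737).

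Among the 28 accessory subunits in the set, 14 fell, 2 rose and 12 did not pass the test, with a median of -0.24. *Ndufa12*, a subunit of the matrix arm, measured 92.8, 105 and 112 FPKM in pNC, 72.1, 72.2 and 76.4 at E14.5 and 53.0, 45.0 and 48.4 at E16.5. *Ndufb8*, a membrane-arm subunit widely used to follow complex I assembly, had 138 to 139 FPKM in the 3 pNC pools, 96.1 to 103 at E14.5 and 62.9 to 71.3 at E16.5. Each stage was separate from the next for both genes. Their log2 fold changes from E10.5 to E16.5 were -0.93 ± 0.10 and -0.87 ± 0.08 (SE; edgeR adjusted p = 1.14e-05 and 3.9e-06). *Ndufs6* lay at 74.6 to 87.7 FPKM in pNC, 63.0 to 83.6 at E14.5 and 49.0 to 52.4 at E16.5, so its fall of 0.39 on the log2 scale in the later interval (edgeR adjusted p = 0.0264) carried most of the change. That call was lost, with an adjusted p of 0.0536 to 0.0831, on leaving out E14.5 replicate 1 or 3 or any E16.5 replicate.

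*Ndufa6*, a LYR-motif accessory subunit, was called higher at both later stages. It had 64.8, 65.8 and 67.3 FPKM in pNC, 96.8, 78.7 and 71.3 at E14.5 and 85.1, 75.5 and 78.5 at E16.5. All later samples exceeded the pNC samples, and the log2 fold change at E16.5 was 0.42 ± 0.11 (SE; edgeR adjusted p = 0.00494). Scaled to library totals the same difference was 0.27 with an adjusted p of 0.0547. Its rise by E14.5 (0.30, edgeR adjusted p = 0.0336) became 0.18 with an adjusted p of 0.114 without E14.5 replicate 1. It also missed the threshold without any single E10.5 replicate and with DESeq2 (adjusted p = 0.0669 to 0.0873). *Ndufc1*, a small membrane-arm subunit, was called higher at E14.5 as well (0.30, edgeR adjusted p = 0.0482). Its adjusted p was 0.0548 to 0.183 under 9 of the other settings, including DESeq2, so this call is at the margin.

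*Ndufv3*, a flavoprotein-fraction subunit with a short and a long RefSeq transcript, rose in counts, while its FPKM did not pass the test. By counts the log2 fold change from E10.5 to E16.5 was 0.52 ± 0.11 (SE; edgeR adjusted p = 0.00119). The FPKM were 56.7, 61.8 and 67.6 in pNC and 72.6, 61.3 and 65.0 at E16.5, groups that overlapped, and limma on log2(FPKM + 1) gave 0.09 (adjusted p = 0.504). The abundance-weighted transcript length that RSEM assigned to the gene rose from 847, 766 and 755 bases in pNC to 857, 859 and 911 at E14.5 and 905, 990 and 945 at E16.5. Of the 82 members this was the 1 whose length varied by over 5% between samples, whereas 74 had a single length throughout. FPKM divides by this length and counts do not.

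All 4 subunits of complex II, which also serves the tricarboxylic acid cycle, fell between E10.5 and E16.5. *Sdhd*, a membrane anchor, went from 90.9 to 97.8 FPKM in pNC to 63.5 to 69.6 at E14.5 and 52.8 to 56.9 at E16.5 (log2 fold change -0.65 ± 0.07, SE; edgeR adjusted p = 1.23e-05). The iron-sulfur subunit *Sdhb* and the flavoprotein *Sdha* changed by -0.63 and -0.51 (edgeR adjusted p = 0.000131 and 0.000388). *Sdhc*, the other anchor, was named after its values were seen. It had 91.1 to 96.8 FPKM in pNC, 91.7 to 95.1 at E14.5 and 63.8 to 73.0 at E16.5. It changed by -0.02 on the log2 scale by E14.5 (edgeR adjusted p = 0.831) and -0.30 after it (edgeR adjusted p = 0.0095).

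In complex III, 6 of the 8 subunits in the set fell. *Uqcrfs1*, the Rieske iron-sulfur protein, had 74.7, 75.5 and 74.8 FPKM in pNC, 52.3, 60.6 and 60.9 at E14.5 and 48.9, 42.1 and 40.6 at E16.5, and fell by 0.63 ± 0.09 on the log2 scale between pNC and E16.5 (SE; edgeR adjusted p = 0.00013). *Uqcrc1*, a core subunit of the same complex, did not pass the test in any comparison. Its FPKM were 117 to 128 in pNC, 108 to 117 at E14.5 and 104 to 116 at E16.5, so the lowest pNC sample (116.85) lay just above the highest E16.5 sample (115.94). Its fitted log2 fold change between those stages was 0.01 ± 0.08 (SE; edgeR adjusted p = 0.923), and -0.14 with library totals (adjusted p = 0.133).

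Of the 11 common subunits of complex IV, 9 fell, and *Cox5a* had the lowest log2 fold change of the 79 members. *Cox5a*, a matrix-side subunit (chromosome 9, 57517328 to 57532427, GRCm38.p6), had 133, 136 and 141 FPKM in pNC, 73.1, 83.8 and 88.7 at E14.5 and 44.8, 52.0 and 52.7 at E16.5. Each stage was well separated from the one before. The log2 fold changes were -0.75 ± 0.10 from E10.5 to E14.5, -0.56 ± 0.11 from E14.5 to E16.5 and -1.31 ± 0.10 overall (SE; edgeR adjusted p = 0.000126, 0.00303 and 1.4e-06), a fall of 59.6% overall. Its exons share 145 bases with the lncRNA gene *Gm26631* on the other strand, and whether counting used strand is not given in the sources used here. *Ndufa4l2* and *Atp5a1* likewise share 32 and 129 exonic bases with *Shmt2* and *Haus1* on the other strand, and *Ndufb8* shares 134 with *Gm20538* on its own strand. *Ndufs1*, *Ndufs6*, *Ndufa9* and *Cox6a2* share 146, 30, 67 and 70 with *Ino80dos*, *Mrpl36*, *1700018A23Rik* and *Itgad* on the other strand. *Cox4i1*, another nuclear-encoded subunit of the same enzyme, lay at 319 to 334, 288 to 303 and 248.9 to 279.0 FPKM, groups that did not overlap. Its log2 fold change of -0.14 ± 0.07 from E10.5 to E16.5 did not pass the test (SE; edgeR adjusted p = 0.117), while with library totals it was -0.29 and passed (adjusted p = 0.00508). *Cox8a* had 285 to 338, 314 to 366 and 246 to 288 FPKM and changed by -0.09 from E10.5 to E16.5 (edgeR adjusted p = 0.407), or by -0.24 with library totals (adjusted p = 0.0465).

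The alternative isoforms and relatives of complex IV subunits changed in both directions. *Ndufa4l2* (chromosome 10, 127509274 to 127517154, GRCm38.p6) is a paralog of the complex IV subunit *Ndufa4* and is known as a gene induced by hypoxia-inducible factor. It had 0.46, 0.46 and 0.12 FPKM in pNC, resting on 4, 4 and 1 reads, then 8.15, 0.59 and 0.93 at E14.5 and 145, 91.9 and 85.9 at E16.5. All E16.5 values lay far above all earlier ones, the nearest being 85.9 against 8.15. The log2 fold change was 8.37 ± 0.76 from E10.5 to E16.5 and 5.23 ± 0.55 from E14.5 to E16.5 (SE; edgeR adjusted p = 3.2e-06 and 0.000351). The rise of 3.14 called by E14.5 (edgeR adjusted p = 0.0368) rests on replicate 1, the pool with the *Krt12* level of 102, and was 1.09 with an adjusted p of 0.343 without it. It was lost as well on leaving out any E10.5 replicate (adjusted p = 0.0765 to 0.109). Over the same stages *Ndufa4* fell, from 289 to 327 FPKM in pNC to 197 to 222 at E14.5 and 158 to 169 at E16.5 (log2 fold change -0.77 ± 0.08, SE; edgeR adjusted p = 6.97e-06). The share of *Ndufa4l2* in the summed FPKM of the pair was 0.11% ± 0.07 in pNC, 1.43% ± 1.84 at E14.5 and 39.2% ± 6.2 in E16.5 corneas (SD, n = 3).

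**Figure D3:**
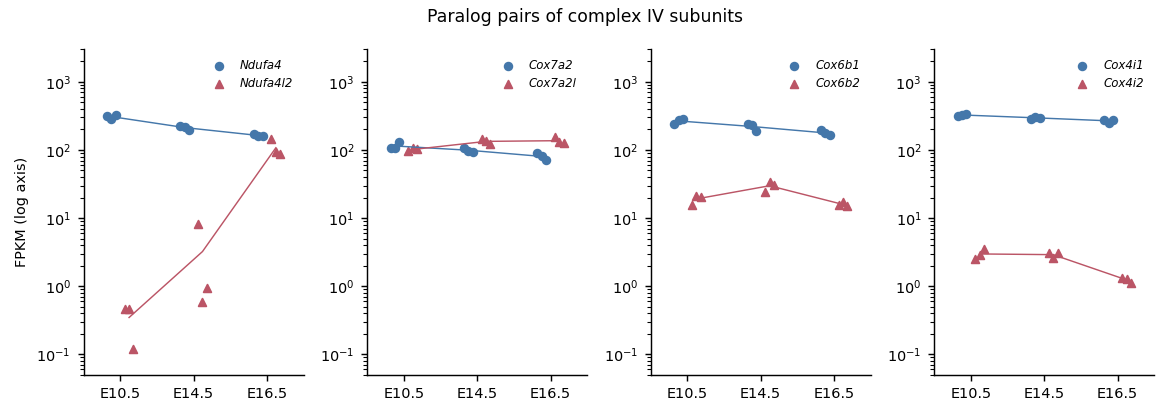
FPKM on a log axis in each of the 3 samples per stage for 4 pairs of complex IV paralogs, with lines through the stage means. Circles mark the common gene and triangles its relative. *Ndufa4l2* climbs from 0.12 to 0.46 FPKM in pNC to 85.9 to 145 at E16.5 while *Ndufa4* declines, and *Cox7a2l* passes *Cox7a2*.

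*Cox7a2l* rose while its relative *Cox7a2* fell. It had 96.0, 107 and 102 FPKM in pNC, 144, 134 and 123 at E14.5 and 153, 132 and 126 at E16.5, with every later sample above every pNC sample. The log2 fold changes from E10.5 were 0.38 ± 0.09 at E14.5 and 0.58 ± 0.09 by E16.5 (SE; edgeR adjusted p = 0.00432 and 0.000171). *Cox7a2* went from 106 to 130 FPKM to 71.0 to 89.6 at E16.5 (-0.36, edgeR adjusted p = 0.0126). This call was lost without E10.5 replicate 3 or E16.5 replicate 3 (adjusted p = 0.0527 and 0.0632). The share of *Cox7a2l* in the pair went from 47.1% ± 3.0 to 57.4% ± 0.9 and 63.0% ± 0.9 (SD, n = 3).

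*Cox6b2*, known as a testis isoform, peaked at E14.5. It had 15.7, 20.8 and 20.7 FPKM in pNC, 24.2, 34.3 and 31.0 at E14.5 and 15.7, 17.1 and 14.8 at E16.5, so the E14.5 samples lay above all others. It rose by 0.63 ± 0.18 on the log2 scale and then fell by 0.75 ± 0.18 (SE; edgeR adjusted p = 0.0113 and 0.00933). *Cox6b1*, the common form, held 86.1% to 93.9% of the summed FPKM of the pair in every sample. *Cox4i2*, an isoform known from lung and from cells at low oxygen, stayed below 1.1% of the *Cox4i1* and *Cox4i2* sum. Its counts were 16, 18 and 22 in pNC, 19, 16 and 19 at E14.5 and 8, 8 and 7 at E16.5, and it changed by -1.10 ± 0.31 on the log2 scale from E10.5 (SE; edgeR adjusted p = 0.0076). At this depth the later step of -1.06 (edgeR adjusted p = 0.0221) was lost on leaving out E14.5 replicate 3 or any E16.5 replicate (adjusted p = 0.0624 to 0.081) and with DESeq2 (0.0937). The muscle isoforms *Cox6a2* and *Cox7a1* stayed near 0 at E10.5 too, where summed skeletal muscle markers were 34.2 to 36.4 FPKM, against 4.67 to 7.95 at E14.5 and 4.71 to 5.39 at E16.5.

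Most ATP synthase genes fell. Of the 12 genes of FO, the stalks and associated subunits 11 fell from E10.5 to E16.5, with a median log2 fold change of -0.49, and of the 5 F1 genes 3 were lower. *Atp5b*, the catalytic subunit, had 675, 670 and 679 FPKM in pNC, 428, 487 and 476 at E14.5 and 341, 326 and 338 at E16.5. With its groups wide apart, it changed by -0.86 ± 0.09 (SE; edgeR adjusted p = 7.33e-06). *Atp5a1* followed with 377 to 388, 292 to 332 and 229 to 241 FPKM (-0.56 ± 0.09, SE; edgeR adjusted p = 0.000176). The 2 that did not pass were the small F1 genes *Atp5d* and *Atp5e*, named after their values were seen. The c ring of FO is encoded by 3 genes whose mature proteins are identical. *Atp5g3* fell from 392 to 412 FPKM in pNC to 267 to 283 at E14.5 and 197 to 213 at E16.5 (-0.81 ± 0.07, SE; edgeR adjusted p = 2.82e-06). *Atp5g2* and *Atp5g1* fell by 0.48 and 0.51 (edgeR adjusted p = 0.000442 and 0.000128). In the summed FPKM of the 3 genes, *Atp5g3* went from 44.8% ± 0.6 in pNC to 39.3% ± 0.9 at E16.5, *Atp5g2* from 41.6% ± 0.7 to 46.0% ± 0.5, and *Atp5g1* stood at 13.6% ± 0.1 and 14.7% ± 0.8 (SD, n = 3). *Atpif1*, which encodes the inhibitor of the enzyme and is not a member, fell as well (-0.37, edgeR adjusted p = 0.0017).

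**Figure D4:**
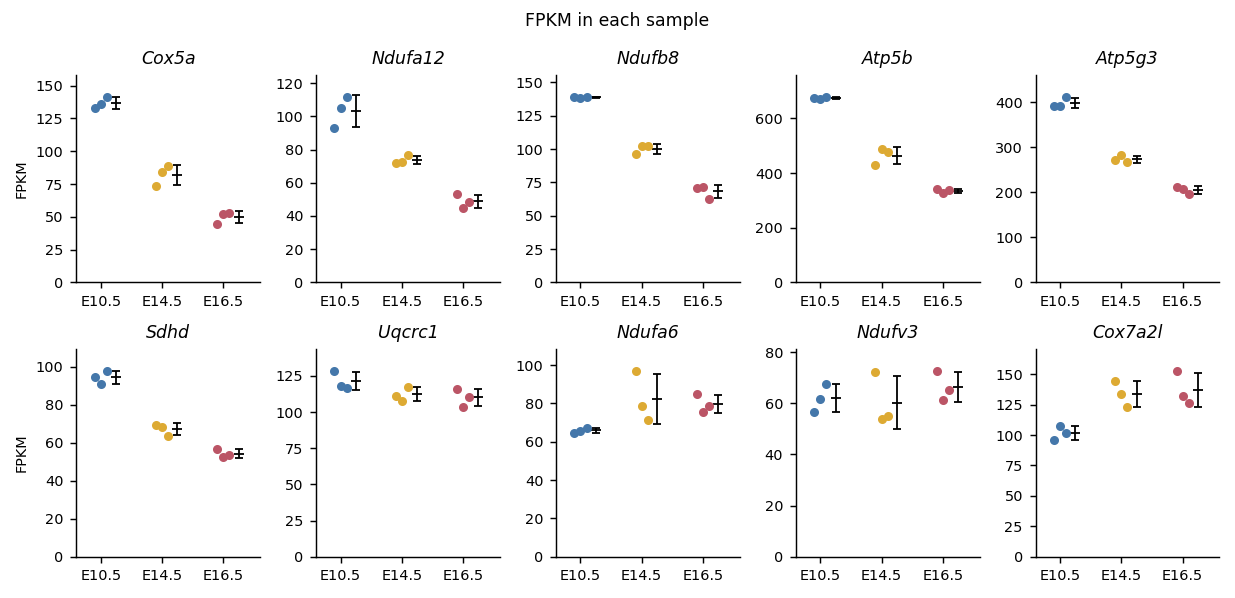
FPKM in each sample (points) with the stage mean and SD (bars, n = 3) for 10 members, axes from 0. *Cox5a*, *Ndufa12*, *Ndufb8*, *Atp5b*, *Atp5g3* and *Sdhd* have FPKM ranges that do not overlap between stages and are lowest at E16.5, although *Sdhd* did not pass the test from E14.5 to E16.5, *Uqcrc1* lies within 104 to 128 FPKM throughout, *Ndufv3* overlaps between stages, and *Ndufa6* and *Cox7a2l* lie above their pNC values at E14.5 and E16.5.

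Genes outside the symbol rule that act in or next to the respiratory chain were examined beside the members. Among 16 other chain components, 10 (62.5%) fell and 3 (18.8%) rose from E10.5 to E16.5, where 34.7% of all genes fell and 35.2% rose. The 16 include *Cyc1* of complex III and *Ndufab1* of complex I, nuclear-encoded subunits that the rule leaves out. They changed by -0.77 and -0.70 on the log2 scale (edgeR adjusted p = 5.71e-05 and 0.000245). *Cycs*, the somatic cytochrome c, fell from 48.5 ± 5.8 to 31.5 ± 1.2 and 16.9 ± 0.7 FPKM (SD, n = 3; log2 fold change -1.37, edgeR adjusted p = 5.63e-07), and *Coq7*, a hydroxylase of ubiquinone synthesis, fell by 1.31. *Coq8a*, a kinase-like protein of the same pathway, rose by 1.504 from a low level (1.43 ± 0.21 to 3.67 ± 0.29 FPKM, edgeR adjusted p = 7.58e-06). Of 46 assembly factors, 18 (39.1%, near the share of all genes) fell and 3 (6.5%) rose, with *Ndufaf5* at -1.39 and *Cox14* at 1.06. Of 13 tricarboxylic acid cycle enzymes, 9 (69.2%) fell and 1 (7.7%) rose. Citrate synthase, *Cs*, fell from 105 ± 4 to 53.0 ± 1.8 FPKM (-0.84, edgeR adjusted p = 3.78e-06), and *Suclg2*, the GTP-forming succinyl-CoA ligase subunit, was the gene that rose (0.54). Among 78 mitochondrial ribosomal protein genes, 60 (76.9%) fell, with a median of -0.53, a lowest value of -1.498 for *Mrps22* and a highest of 0.21.

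**Figure D5:**
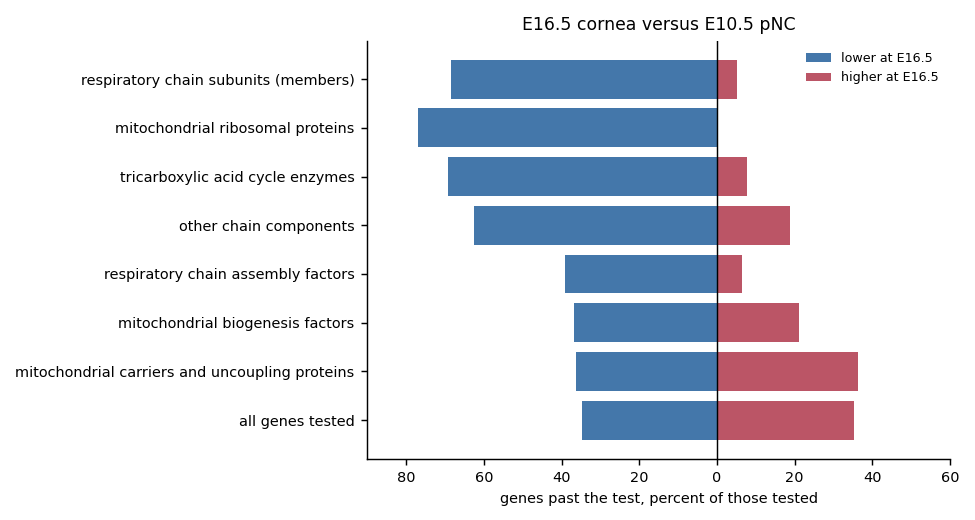
Percent of tested genes called lower (blue, left) or higher (red, right) in E16.5 cornea versus pNC, for the members, 6 other mitochondrial gene lists and all genes tested. The members have 68.4% lower and 5.06% higher, where all genes have 34.7% and 35.2%.

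Of 19 biogenesis factors tested, 7 (36.8%) fell and 4 (21.1%) rose. The first share is near the 34.7% of all genes that fell, and the second is below the 35.2% that rose. *Nrf1*, *Gabpb1* and *Tfam*, the mitochondrial DNA-packaging factor, fell by 0.72, 0.84 and 0.74 on the log2 scale (edgeR adjusted p = 7.12e-05, 0.000674 and 7.83e-05). *Gabpa* and *Yy1* did not pass the test, at -0.14 and -0.23 (edgeR adjusted p = 0.211 and 0.0522). The receptor *Esrra* rose from 7.23 ± 0.48 to 13.3 ± 1.2 FPKM (SD, n = 3; log2 fold change 1.03, edgeR adjusted p = 0.000337), and the stress-response factor *Nfe2l2* by 1.24. *Ppargc1a*, the coactivator of mitochondrial biogenesis, rose by 1.44 from a low level (0.64 ± 0.16 to 1.58 ± 0.04 FPKM, edgeR adjusted p = 0.000157). Among 11 carriers, 4 rose and 4 fell (36.4% each, near the shares of all genes), with the ADP/ATP carrier *Slc25a5* at -1.10 and the uncoupling protein *Ucp2* at 1.001. The mitochondrially encoded subunits were not analysed here.

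Fold changes also varied with transcript length. The median length was 679 bases for the members tested and 2842 bases for all genes tested. Among genes under 600 bases the median log2 fold change from E10.5 to E16.5 was -0.29 for 35 members and -0.13 for all 254 genes, whereas among genes of 1000 bases or more it was -0.51 for 22 members and 0.01 for 13743 genes. The difference between members and all genes was larger in the longer class. From E10.5 to E14.5 the short members hardly differed from all short genes, with medians of -0.12 and -0.10. At 1000 bases or more the medians for that interval were -0.30 for members and 0.02 for all genes. From E14.5 to E16.5 they were -0.19 and -0.10 under 600 bases, and -0.22 and -0.03 in the longer class. The counts for all genes include the members. With the trend of fold change on length removed, 48 members fell and 8 rose from E10.5 to E16.5, and the median was -0.28.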

How the data were processed

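Bulk mRNA-Seq of 9 samples was analysed, 3 each of pNC at E10.5 and cornea at E14.5 and E16.5, grouped by the submitters' labels. The authors enriched mRNA with oligo-dT, and their processing notes name HISAT, Bowtie2, RSEM and GRCm38, with versions and strand setting not given in the sources used here. The deposited values per gene are RSEM expected counts, not normalized, FPKM computed by the authors, and the transcript lengths RSEM used. FPKM are given as deposited.

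Symbols were assigned by Entrez ID from RefSeq, which named 19312 of 19369 genes. Expected counts were rounded, filtered with filterByExpr by stage, scaled by TMM and fitted for all 9 samples with edgeR 4.0.16 in R 4.3.3 (quasi-likelihood test, 14771 genes). P-values were adjusted by Benjamini-Hochberg over all genes tested in each of 3 comparisons, and a gene was called at an adjusted p below 0.05, with a log2 fold change of at least 1 where a 2-fold minimum is stated. Alternatives were no filter, DESeq2 1.42.0 and its size factors, library totals, limma 3.58.1 on log2(FPKM + 1) or log2(FPKM + 0.1) with a minimum mean FPKM of 1 or none, removal of a length trend by loess, a replicate block, fits of 2 stages, each sample left out, and a NOISeq criterion. The edgeR fit was tested on simulated counts with known changes, for E16.5 versus E10.5.

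The named members were, per comparison, the 5 largest rises and falls among called members with a mean FPKM of at least 5, the complex IV isoforms with their partners, the c subunit and inhibitor genes, listed catalytic or cofactor subunits, and the 3 members of highest and of lowest FPKM. In other lists the 2 largest called rises and falls could be named, and biogenesis factors with a mean FPKM of at least 5. Members and lists were chosen with earlier results of these data known.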

Additional observations from a re-analysis of the deposited data

How the results depend on the processing

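For the 34 named members, no fold change that passed the test in the reported fit or in an alternative changed sign, while some that passed in neither did, such as that of *Uqcrc1*. DESeq2 left 88 of their 93 fold changes on the same side of the threshold. From E10.5 to E14.5 the 5 members called higher became 2 with 2 stages in the fit, 3 with DESeq2 and 8 with the length trend removed (2 to 5 with a sample left out), and the 1 past the 2-fold minimum became 0 with 2 stages in the fit, limma on log2(FPKM + 1) with or without a filter and the NOISeq criterion (0 to 1 with a sample left out). From E10.5 to E16.5 the 4 called higher became 8 with the length trend removed and 2 with unfiltered limma. The 2 lower past the 2-fold minimum became 5 with library totals and with limma on log2(FPKM + 0.1), and 4 with limma on log2(FPKM + 1), with or without a filter, and NOISeq (1 to 3 with a sample left out). The median of -0.36 became -0.28 with the length trend removed, -0.51 with library totals, -0.50 with both filtered limma settings (-0.505 and -0.498) and -0.47 with unfiltered limma. From E14.5 to E16.5 the 2 called higher became 1 with library totals and the 3 limma settings (2 to 5 with a sample left out, 5 without E14.5 replicate 1). The 24 called lower became 56 with library totals, 57 with both filtered limma settings and 52 unfiltered (10 to 22 with a sample left out). The 1 lower past the 2-fold minimum became 0 with DESeq2, limma on log2(FPKM + 1) with or without a filter and NOISeq (0 to 1 with a sample left out), and the median of -0.19 became -0.35, -0.34 (-0.344 and -0.341) and -0.33. Library-total and FPKM scales shift all genes by construction, and the other causes were not tested. Replicate numbers did not pair the samples (mean correlation of deviations -0.02 within and 0.01 between numbers), and with a replicate block 29, 53 and 19 members were lower in place of 31, 54 and 24. Low counts limit *Cox4i2*, *Ndufa4l2* before E16.5 and the muscle isoforms.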
